A study of Mus musculus with 9 samples.

Results

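The genes described here encode the complement and coagulation factors that the liver releases into plasma, together with the inhibitors and fibrinolytic proteins that act beside them. They were taken by symbol from the table of gene expression values, and all 45 listed genes were found among the 21873 genes of the table, 24 in the complement family and 21 in the coagulation family. Liver RNA was sequenced from 9 male C57BL/6 mice. In the control group (NS, n = 3) normal saline was injected intraperitoneally for 8 weeks, and in the TAA group (n = 3) thioacetamide, a compound that injures hepatocytes and leads to fibrosis, was injected in the same way for 8 weeks. In the recovery group (n = 3) the mice received thioacetamide for 8 weeks and were then left untreated for another 8 weeks. The recovery mice were thus older at collection than both other groups, and no control group of their age was analysed here, so that age and recovery cannot be told apart. The mice were 8 weeks old when obtained, and no group carried an introduced allele by its labels.

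Complement is a set of plasma proteins that tag and lyse microbes and damaged cells. Its classical arm starts from the C1 complex, its lectin arm from mannose-binding lectins and their proteases, and its alternative arm from C3 with factors B and D, and all arms meet at C3 and end in the membrane attack complex of C5 to C9. Coagulation runs through vitamin K-dependent serine proteases and their cofactors to thrombin, which turns fibrinogen into fibrin, while antithrombin and protein C restrain it and plasmin dissolves the clot. Hepatocytes are the main source of most of these proteins, whereas C1q and properdin come mostly from macrophages and other myeloid cells, and factor D from adipocytes.

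Expression is given throughout as scaled FPKM, which is FPKM (the fragments of a gene per kilobase of its length, relative to all mapped fragments of the library) divided by a factor for the library (the median of its ratios to a reference over all genes above 0). This factor was 0.827 to 0.878 in controls, 1.29 to 1.38 in TAA livers and 0.893 to 0.907 in recovery livers. Without it the median log2 fold change of all genes in TAA livers against controls was 0.63, and with it 0.02. Groups were compared with limma on log2(scaled FPKM + 0.1), and a gene is called higher or lower, or said to have risen or fallen, where its Benjamini-Hochberg adjusted p over all 14094 tested genes was under 0.05 and its fold change at least 2. All 45 genes were tested. Hepatocyte markers were abundant in every library, with a summed scaled FPKM of 37988 to 42646 in controls, 22849 to 30397 in TAA livers and 46809 to 49839 in recovery livers. As a share of the summed FPKM they held 8.65% to 9.47% in controls, 9.65% to 11.6% in TAA livers and 11.2% to 11.7% in recovery livers. In scaled FPKM, 3 of their 7 genes (Apoa1, Apob and Arg1) fell in TAA livers while Alb, Ttr, Ahsg and Cps1 were not called. In whole liver, fewer hepatocytes and less RNA per hepatocyte cannot be told apart. All 6 stellate cell and all 4 cholangiocyte markers rose in TAA livers. Skeletal muscle markers, at a sum of 0.160 to 0.426 in 8 libraries, reached 42.1 in TAA 3, and without this library 15 complement and 9 coagulation genes were still called lower in TAA livers.

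In TAA livers the hepatic factors were mostly lower than in controls. Of the 24 complement genes, 15 fell and 2 (C1qa and C1qb) rose, and of the 21 coagulation genes, 9 fell and none rose. Over all tested genes, 8.02% were called lower and 17% higher. The median log2 fold change was -1.29 for complement and -0.94 for coagulation genes, beside 0.02 for all tested genes. In recovery livers against TAA livers, 16 complement and 11 coagulation genes rose and none fell, with medians of 1.23 and 1.08, where 7.12% of all tested genes were called higher and 14.3% lower. Both comparisons use the same TAA libraries, so the return is not independent of the fall. None of the 45 genes was called between recovery livers and controls, where 0.582% of all tested genes were higher and 0.412% lower. The plot of fold changes shows both families by role.

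**Figure D1:**
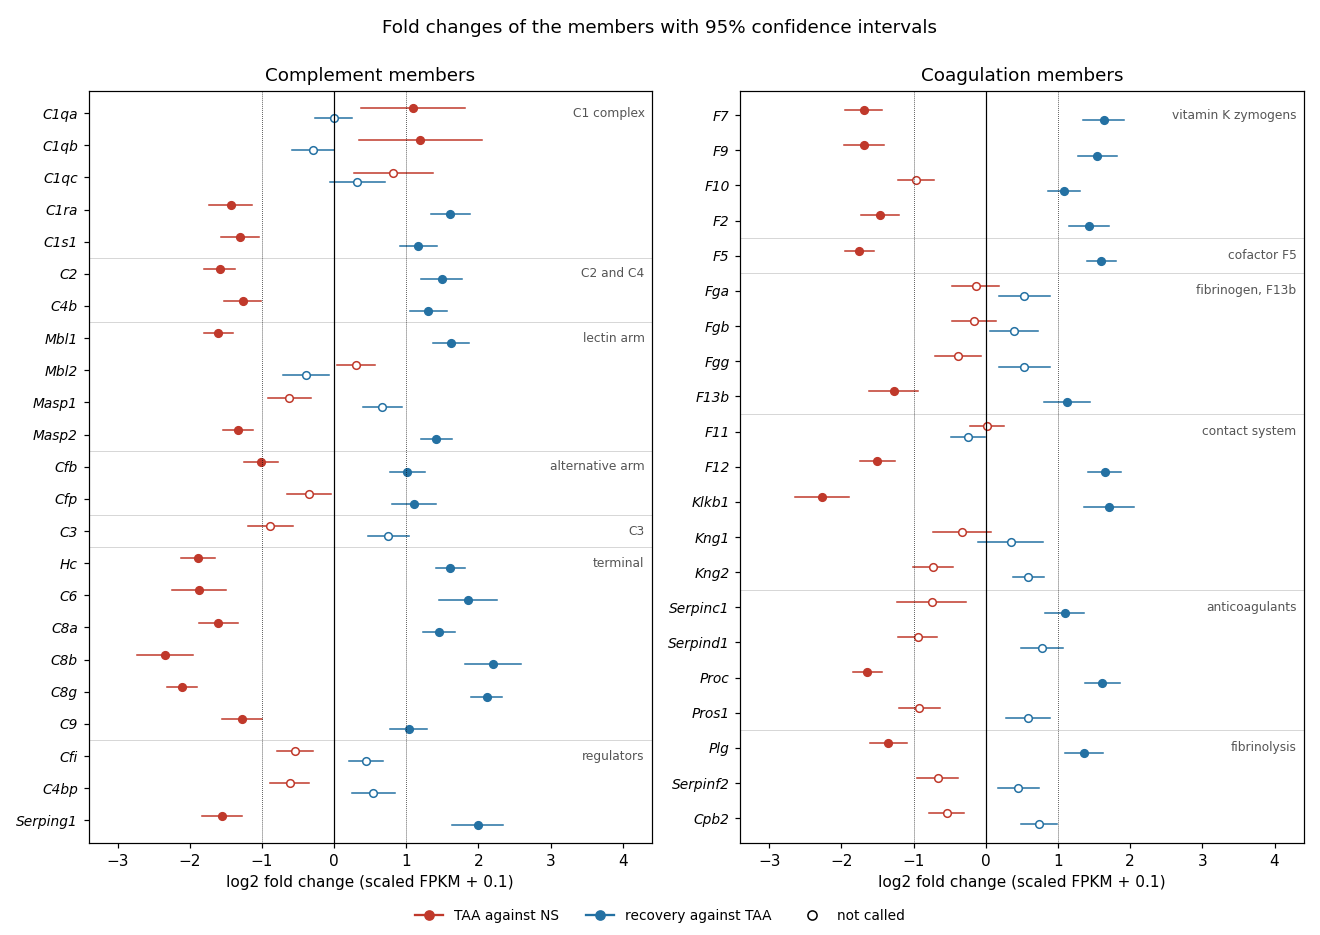
Log2 fold change of each complement gene (left panel) and coagulation gene (right panel), in TAA livers against controls (red) and in recovery livers against TAA livers (blue), with 95% confidence intervals from limma (n = 3 mice per group). Filled points were called; dotted lines mark a fold change of 2, and Cfd is left out because it was listed at 0 in TAA livers. All 6 terminal components lie left of the dotted line in TAA livers, and the 3 fibrinogen chains lie between the lines.

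The parts of the C1 complex went in opposite directions. C1qa, which encodes a chain of the recognition subunit C1q (chr4:136895917-136898803, mm10), had 10.4, 22.2 and 25.8 scaled FPKM in controls, 40.6, 34.1 and 42.2 in TAA livers and 35.9, 42.0 and 38.4 in recovery livers. All TAA and recovery libraries were above all control libraries, and the lowest value was that of NS 1. C1qa rose by a log2 fold change of 1.09 (SE 0.31, limma adjusted p = 0.0191), and C1qb by 1.19. The third chain, C1qc, was higher by less than the fold criterion (log2 fold change 0.82, limma adjusted p = 0.0189) and was not called. All its TAA libraries were above all its control libraries. It was called higher with FPKM as deposited, with FPKM rescaled to a common sum and with quantile normalization. By contrast C1ra, the gene of the C1r protease (chr6:124512405-124523443), had 72.0, 82.3 and 85.6 in controls, 33.8, 25.4 and 29.7 in TAA livers and 96.0, 90.8 and 84.3 in recovery livers. The TAA values lay far under both other groups, which overlapped. C1ra fell by 1.43 on the log2 scale (SE 0.13, limma adjusted p = 8.05e-05), and C1s1, the gene of the protease that C1r activates, had a log2 fold change of -1.30. The ratio of C1qa to C1ra within a library was 0.146 to 0.302 in controls, 1.20 to 1.42 in TAA livers and 0.374 to 0.463 in recovery livers, and this pair was picked with its values in view.

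Whether C1qa and C1qb were called higher depended on single mice, while both log2 fold changes stayed positive without any 1 mouse. Without NS 1 the log2 fold change of C1qa was 0.70 and that of C1qb 0.72, under the fold criterion though with adjusted p of 0.00452 and 0.00640 (limma). Neither gene was called without TAA 1 or without TAA 3, where the adjusted p of C1qa was 0.0572 and 0.0689 and the log2 fold changes of both genes stayed above 1. The summed level of 8 macrophage markers was 97.2 to 163 in controls, with the lowest value again in NS 1, 204 to 268 in TAA livers and 175 to 253 in recovery livers. The higher sum in TAA livers lay in Lyz2, which had 43.3 to 47.2 in controls, 96.5 to 152 in TAA livers and 41.2 to 66.5 in recovery livers. Without it the other 7 markers summed to 50.0, 115 and 119 in controls, 116, 108 and 103 in TAA livers and 134, 146 and 186 in recovery livers, a split chosen after the values were seen. Of the 8 genes Cd68, Marco and Lyz2 rose in TAA livers, while the Kupffer cell gene Clec4f, with 13.8 to 36.2 in controls and 20.2 to 23.9 in TAA livers, was not called. Their part in the C1q result was not tested.

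Downstream of C1, both C2 and C4b fell. C2, which supplies the protease of the classical convertase, had 52.4, 50.5 and 50.9 scaled FPKM in controls, 18.3, 15.2 and 17.7 in TAA livers and 52.5, 51.0 and 41.2 in recovery livers. Its log2 fold change in TAA livers was -1.59 (SE 0.09, limma adjusted p = 1.5e-05). C4b, the gene of complement C4, had a log2 fold change of -1.26 and rose by 1.30 in recovery livers. Another gene model is annotated over C2 and its neighbour Cfb and covers 79.5% of the exon bases of Cfb, and that model with Zbtb12 covers 46.9% of those of C2, so that reads there may be shared. The close relative C4a was not analysed here.

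The 4 genes of the lectin arm did not move as a block. Mbl1, the gene of mannose-binding lectin A, had 32.3, 36.7 and 35.2 scaled FPKM in controls, 11.9, 11.5 and 10.8 in TAA livers and 32.0, 33.9 and 39.9 in recovery livers. The TAA libraries stood clear of the others, at 0.329 times the control level (log2 fold change -1.60, SE 0.09, limma adjusted p = 1.23e-05). Mbl2, the gene of mannose-binding lectin C, had 102, 87.5 and 88.0 in controls and 124, 117 and 100 in TAA livers. These groups overlapped, and its log2 fold change of 0.30 was not called, though it was called higher with FPKM rescaled to a common sum (1.13) and with quantile normalization (1.04). The ratio of Mbl2 to Mbl1 was 2.38 to 3.13 in controls, 9.24 to 10.4 in TAA livers and 2.16 to 3.11 in recovery livers, a pair chosen after its values were seen. Of the lectin-associated proteases, Masp2 fell by 1.33 on the log2 scale, and Masp1 was lower by less than the fold criterion (-0.62, limma adjusted p = 0.00453). Tardbp lies antisense to Masp2 over 54.9% of its exon bases, and the library kit does not mark strand, so reads from the overlap cannot be assigned to either gene.

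C3, at which the arms meet, was the complement gene with the highest level. Its scaled FPKM were 1981, 2410 and 2176 in controls, 1255, 1142 and 1159 in TAA livers and 2065, 2029 and 1888 in recovery livers. All TAA libraries were below all others, and the log2 fold change of -0.88 (SE 0.14, limma adjusted p = 0.00120) did not reach the fold criterion; it was -0.24 with FPKM as deposited and 0.59 with quantile normalization. In the alternative arm, Cfb, the gene of factor B, stood close to that criterion, with a log2 fold change of -1.01 in TAA livers and 1.01 in recovery livers against TAA livers. Without NS 3 its first value was -0.98 and without TAA 2 -0.95, and its second was 0.96 without TAA 2 and without recovery 1, all short of a call. Cfp, the gene of properdin, which stabilizes the convertase, had 7.08 to 9.25 in controls, 6.20 to 7.20 in TAA livers and 12.4, 14.1 and 16.9 in recovery livers. It was not called in TAA livers (log2 fold change -0.34) but rose by 1.11 in recovery livers against TAA livers, or by 0.99 without recovery 3. Cfd, the gene of factor D, had 8.41, 0.969 and 0.529 in controls, stood at 0 in every TAA library, and had 0.325, 0.117 and 1.54 in recovery livers. It is counted among the genes called lower, but no fold is given against a group at 0, and with a pseudocount of 1 it was not called (limma adjusted p = 0.0563). The return of Cfd was not called with that pseudocount (limma adjusted p = 0.0814), without TAA 3 (0.0519), with all 9 libraries in 1 fit (0.0566) or when tested against a fold change of 2 itself (0.277). The high value of NS 1 came with a summed level of the 5 adipocyte markers of 1.47, against 0.0330 to 0.579 in the other libraries; most of that sum was Cidea at 1.40, Adipoq was at 0.0699 and Lep at 0. The part of fat tissue in the Cfd values was not tested.

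The terminal components fell together. All 6 genes, Hc (complement C5), C6, C8a, C8b, C8g and C9, were called lower in TAA livers and higher in recovery livers against TAA livers, with log2 fold changes of -2.34 to -1.28 in the first and at least 1.03 in the second. No other role had all of more than 2 genes called in both comparisons. C8b, the gene of the beta chain of C8 (chr4:104766317-104804548), had 106, 112 and 121 scaled FPKM in controls, 28.4, 17.6 and 21.7 in TAA livers and 111, 91.9 and 104 in recovery livers. It was at 0.197 times the control level in TAA livers (log2 fold change -2.34, SE 0.17, limma adjusted p = 3.35e-05), which was the largest decrease among the 45 genes but for Cfd. Hc had 262, 295 and 318 in controls, 80.8, 81.0 and 73.9 in TAA livers and 245, 230 and 246 in recovery livers. Its recovery libraries all remained under its control libraries, by a log2 difference of -0.28 that was not called. The least affected was C9, with a log2 fold change of -1.28, and its rise of 1.03 in recovery livers became 0.99 without TAA 3 and 0.95 without recovery 1. C7, whose product joins between C6 and C8, had 0.639 to 1.61 scaled FPKM over the groups and was not called in any comparison. Its log2 fold change in TAA livers was -0.28. In recovery livers against TAA livers C7 was higher by less than the fold criterion (0.98, limma adjusted p under 0.05).

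C8a and C8b lie 11130 bases apart on chromosome 4 and changed unequally. C8a had a log2 fold change of -1.60, and the ratio of C8b to C8a was 0.572 to 0.657 in controls, 0.307 to 0.436 in TAA livers and 0.600 to 0.653 in recovery livers. A ratio without overlap between controls and TAA livers was common, at 60.6% of 9890 pairs of neighbouring tested genes. The upstream sequences of both are shown because they are the closest pair of the terminal group. Each is the 250 bases before the RefSeq start (GRCm38.p6), C8a from chr4:104876399-104876648 on the minus strand and C8b from chr4:104766067-104766316 on the plus strand. Capitals mark matches on either strand to short motifs for liver transcription factors, namely GTTAAT (HNF1 half-site), TTGCNNAA (C/EBP-type), TTCNNNGAA (STAT-type) and CTGGGAA (IL-6 response element of type II).
C8a: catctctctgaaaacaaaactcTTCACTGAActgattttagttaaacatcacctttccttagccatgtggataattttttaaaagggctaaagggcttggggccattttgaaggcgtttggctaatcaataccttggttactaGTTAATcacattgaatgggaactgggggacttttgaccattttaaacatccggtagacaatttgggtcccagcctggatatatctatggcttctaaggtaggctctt
C8b: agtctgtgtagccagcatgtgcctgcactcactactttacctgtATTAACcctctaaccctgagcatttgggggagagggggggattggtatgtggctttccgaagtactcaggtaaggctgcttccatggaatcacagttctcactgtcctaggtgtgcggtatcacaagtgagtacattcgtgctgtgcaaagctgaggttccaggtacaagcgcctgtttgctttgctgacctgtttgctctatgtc
Both held 1 HNF1 half-site, which began at position -107 from the start in C8a and -206 in C8b, and C8a held a STAT-type match as well.

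Of the 3 complement regulators only Serping1 was called. It encodes C1 inhibitor, which also restrains kallikrein and factor XII, and it had 184, 210 and 238 scaled FPKM in controls, 73.0, 66.0 and 75.3 in TAA livers and 223, 332 and 308 in recovery livers. Its log2 fold change was -1.55 in TAA livers (SE 0.12, limma adjusted p = 4.07e-05) and 1.99 in recovery livers against TAA livers. Cfi, the gene of the C3b-cleaving factor I, and C4bp, the gene of C4b-binding protein, were lower by less than the fold criterion (-0.54 and -0.61). The plot of levels shows 12 of the genes mouse by mouse.

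**Figure D2:**
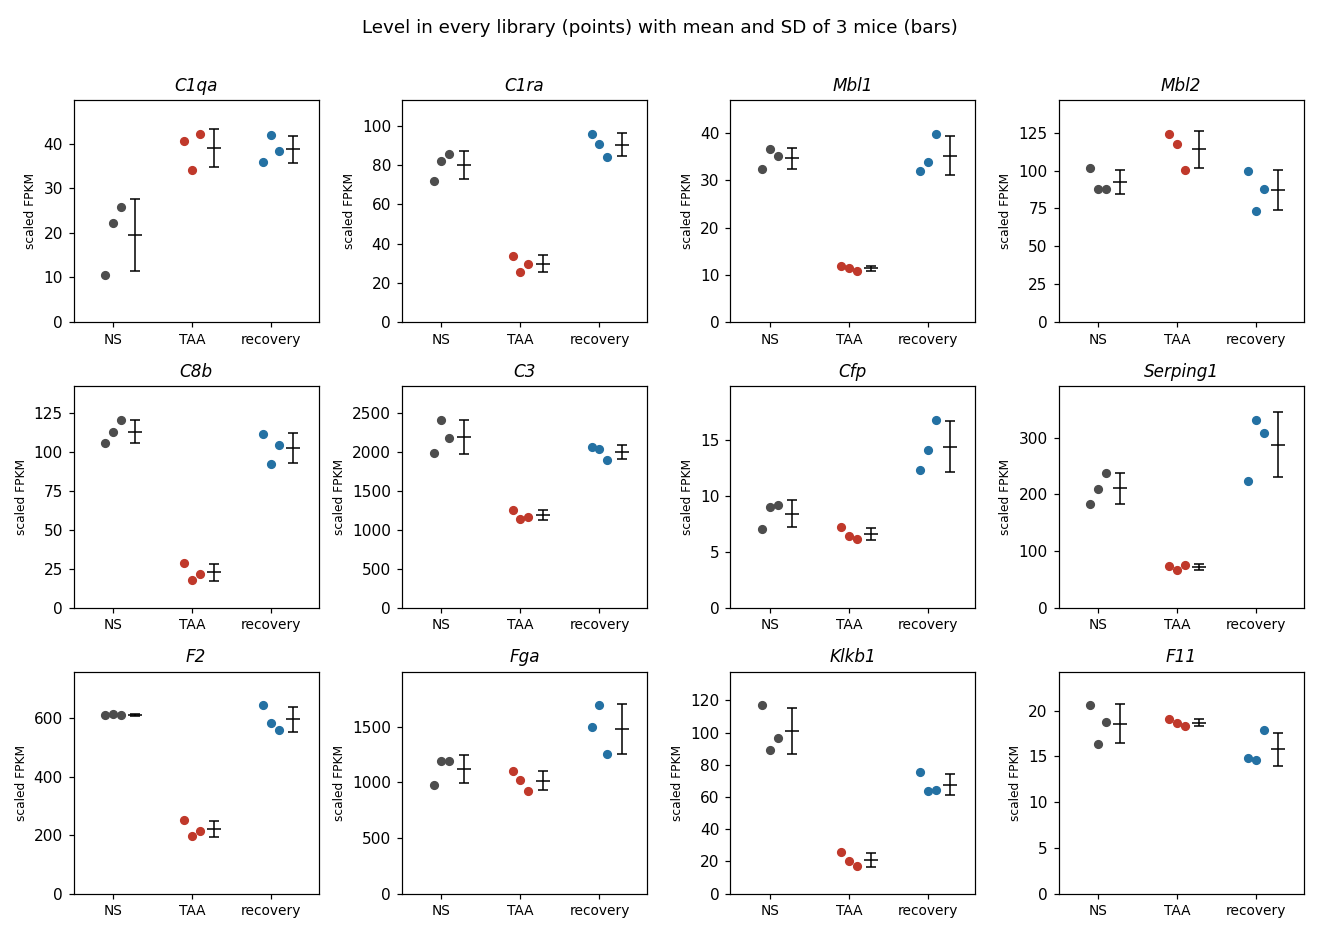
Scaled FPKM of 12 genes in each mouse of the control (NS), TAA and recovery groups; points are single libraries, and the bar beside them is the mean with the SD (n = 3), on linear axes that start at 0. C1qa stays high in recovery livers, C8b and Klkb1 are lowest in TAA livers, and the TAA values of Fga and F11 overlap those of controls.

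Of the 4 vitamin K-dependent zymogens of coagulation, F7, F9 and F2 fell. F7, which starts the extrinsic pathway with tissue factor, had 35.1, 33.5 and 34.5 scaled FPKM in controls, 11.9, 9.10 and 10.8 in TAA livers and 33.0, 35.9 and 30.1 in recovery livers. The log2 fold change of F7 was -1.69 (SE 0.11, limma adjusted p = 2.44e-05), and F9, the factor lacking in haemophilia B, had the same value of -1.69. F2, the gene of prothrombin (chr2:91625320-91636414), had 610, 615 and 610 in controls, 253, 198 and 215 in TAA livers and 644, 584 and 560 in recovery livers. Its log2 fold change was -1.47 (SE 0.11, limma adjusted p = 4.78e-05). F10 lies 1498 bases from F7, and at -0.97 it was just short of the fold criterion, with -1.02 without NS 2 and -1.05 without TAA 1. The ratio of F7 to F10 was 0.313 to 0.345 in controls, 0.181 to 0.220 in TAA livers and 0.273 to 0.318 in recovery livers. All 4 zymogens rose in recovery livers against TAA livers, by 1.08 to 1.63. F5, the cofactor of factor X, had 144, 142 and 144 in controls, 44.8, 44.0 and 38.8 in TAA livers and 126, 129 and 132 in recovery livers. It fell by 1.75 on the log2 scale (SE 0.09, limma adjusted p = 8.12e-06). Vkorc1, which recycles the vitamin K that the zymogens need, fell by 1.27 in TAA livers and rose by 1.83 in recovery livers against them, while Ggcx, the carboxylase itself, was not called (-0.51).

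None of the 3 fibrinogen chains was called in TAA livers. Fga had 979, 1194 and 1195 scaled FPKM in controls, 1104, 1022 and 927 in TAA livers and 1499, 1694 and 1253 in recovery livers. Fgb had 554, 697 and 660, then 612, 580 and 513, and then 712, 883 and 647 in the same order of groups, and Fgg had 1006, 1202 and 1139, then 968, 838 and 763, and then 1220, 1420 and 1080. For Fga and Fgb controls and TAA livers overlapped. Their log2 fold changes in TAA livers were -0.14 (95% confidence interval -0.46 to 0.18) and -0.16 (-0.47 to 0.14). Fgg was lower by less than the fold criterion (-0.38, limma adjusted p = 0.0479), and its control and TAA libraries did not overlap. With FPKM as deposited the values of Fga, Fgb and Fgg were 0.50, 0.48 and 0.25. Nor was any chain called in the other comparisons. In recovery livers against TAA livers all had positive values under the fold criterion (0.54, 0.39 and 0.53), and the libraries did not overlap. The limma adjusted p there was 0.0198 for Fga, 0.0565 for Fgb and 0.0203 for Fgg. With FPKM as deposited these values were -0.03, -0.17 and -0.03. The ratio of Fga to F2, chosen after its values were seen, was 1.61 to 1.96 in controls, 4.31 to 5.15 in TAA livers and 2.24 to 2.90 in recovery livers. F13b, the carrier subunit of the enzyme that crosslinks fibrin, was called lower, with 107, 90.3 and 91.4 in controls, 48.0, 39.3 and 32.9 in TAA livers and 91.4, 86.2 and 81.2 in recovery livers (log2 fold change -1.27 in TAA livers, SE 0.15, limma adjusted p = 2.89e-04). Its return in recovery livers (1.12) was 0.99 without TAA 3.

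Fibrinogen is known as an acute phase protein, and the acute phase genes measured here were mixed. Of 10 such genes, Orm2 and Lcn2 rose in TAA livers, Saa1, Hp, Crp and Itih4 fell, and the others were not called. The chains form a cluster on chromosome 3, with Fgg and Fga 11026 and Fga and Fgb 6513 bases apart. Their upstream sequences are shown together because the chains lie in 1 cluster and none was called. The ratio of Fga to Fgb was 1.71 to 1.81 in controls, 1.76 to 1.81 in TAA livers and 1.92 to 2.10 in recovery livers. The sequences come from chr3:83025903-83026075 (Fga, plus strand, 173 bases, cut where the annotated gene begins), chr3:83049864-83050113 (Fgb, minus strand) and chr3:83007474-83007723 (Fgg, plus strand), with capitals as above.
Fga: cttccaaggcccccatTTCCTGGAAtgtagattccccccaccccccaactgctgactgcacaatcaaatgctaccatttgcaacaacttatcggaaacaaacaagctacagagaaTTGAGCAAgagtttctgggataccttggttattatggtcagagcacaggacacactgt
Fgb: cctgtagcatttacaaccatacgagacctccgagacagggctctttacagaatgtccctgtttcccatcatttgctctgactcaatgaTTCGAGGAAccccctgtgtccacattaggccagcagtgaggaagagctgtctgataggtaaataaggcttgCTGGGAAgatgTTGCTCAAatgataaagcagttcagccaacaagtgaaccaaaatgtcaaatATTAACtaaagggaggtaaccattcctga
Fgg: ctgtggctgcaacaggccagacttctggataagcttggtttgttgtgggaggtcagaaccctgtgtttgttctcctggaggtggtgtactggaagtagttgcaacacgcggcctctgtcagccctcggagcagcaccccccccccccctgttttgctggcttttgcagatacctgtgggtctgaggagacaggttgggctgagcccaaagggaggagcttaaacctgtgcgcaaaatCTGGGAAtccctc
Fgb held a match to each of the 4 motifs, and Fgg only the IL-6 type II element, at position -13 from its start. Fga held a STAT-type and a C/EBP-type match in the stretch printed and an HNF1 half-site at position -43 from the RefSeq start, outside it.

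In the contact system, which starts the intrinsic pathway and releases bradykinin, neighbouring genes went apart. Klkb1, the gene of plasma prekallikrein (chr8:45266689-45294859), had 117, 89.1 and 96.5 scaled FPKM in controls, 25.6, 20.0 and 17.4 in TAA livers and 75.5, 63.4 and 64.2 in recovery livers. It fell to 0.207 times the control level (log2 fold change -2.27, SE 0.16, limma adjusted p = 3.47e-05) and was the coagulation gene with the largest change. In recovery livers it rose by 1.70, and all its values remained below all control values (log2 difference -0.57, limma adjusted p = 0.0659, not called). F11, its close relative 4657 bases away (chr8:45241174-45262031), had 20.6, 16.4 and 18.8 in controls, 19.1, 18.7 and 18.4 in TAA livers and 14.9, 14.6 and 17.9 in recovery livers. Its log2 fold change in TAA livers was 0.02, with a 95% confidence interval of -0.22 to 0.25. This value depended on the scaling: with FPKM as deposited it was 0.65, and with a common sum F11 was called lower in recovery livers against TAA livers. The ratio of Klkb1 to F11 was 5.11 to 5.65 in controls, 0.945 to 1.34 in TAA livers and 3.57 to 5.05 in recovery livers, a mean log2 change of -2.29 in TAA livers. An exact two-sided permutation test of this ratio gave p = 0.1, the smallest that 3 against 3 mice allow. Ratios without overlap between controls and TAA livers were found for 60.6% of 9890 pairs of neighbouring tested genes. Of the exon bases of Klkb1, 43.2% are shared with another gene model on the same strand.

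The upstream sequences of this pair are shown as those of the neighbours with the most unequal response. They come from chr8:45294860-45295085 (Klkb1, minus strand, 226 bases, cut where the annotated gene begins) and chr8:45262032-45262281 (F11, minus strand).
Klkb1: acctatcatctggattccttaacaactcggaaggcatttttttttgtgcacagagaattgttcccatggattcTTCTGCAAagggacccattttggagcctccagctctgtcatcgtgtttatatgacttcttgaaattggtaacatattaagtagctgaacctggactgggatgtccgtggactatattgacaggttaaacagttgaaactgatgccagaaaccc
F11: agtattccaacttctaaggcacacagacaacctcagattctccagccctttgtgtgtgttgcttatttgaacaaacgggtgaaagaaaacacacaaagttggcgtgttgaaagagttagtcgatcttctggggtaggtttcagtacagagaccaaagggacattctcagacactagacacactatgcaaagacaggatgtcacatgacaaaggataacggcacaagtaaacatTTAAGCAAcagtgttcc
Each held 1 C/EBP-type match, at position -177 from the RefSeq start in Klkb1 and -17 in F11, and no match to the other 3 motifs. The remaining contact genes differed too. F12, the gene of factor XII, fell to 0.353 times the control level and rose by 1.65 on the log2 scale in recovery livers. Kng1 and Kng2, the kininogen genes from which bradykinin is cut, were not called in any comparison. Kng1 had a log2 fold change of -0.33 in TAA livers. Kng2 was lower there by less than the fold criterion (-0.74), and higher by less than it in recovery livers against TAA livers (0.59). With any 1 mouse left out, the limma adjusted p of Kng2 was at most 0.00704 and 0.00603 in these comparisons. With FPKM as deposited the values of Kng2 were -0.10 and 0.03. In TAA 3, Kng1 was at 434 scaled FPKM, against 623 to 732 in the other TAA libraries and controls.

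Among the inhibitors of coagulation only Proc fell. It encodes protein C, another vitamin K-dependent protein, and had 188, 178 and 187 scaled FPKM in controls, 64.5, 55.9 and 57.1 in TAA livers and 198, 182 and 164 in recovery livers. Its log2 fold change in TAA livers was -1.64 (SE 0.09, limma adjusted p = 1.19e-05). Serpind1 (heparin cofactor II) and Pros1 (protein S, the cofactor of protein C) were near the fold criterion at -0.94 and -0.92, and both were called lower without TAA 1 (-1.02 and -1.01). Serpinc1, the gene of antithrombin, had 617, 368 and 389 in controls, 299, 247 and 251 in TAA livers and 615, 546 and 533 in recovery livers. NS 1 stood well above the other control libraries, and the log2 fold change of -0.75 (SE 0.20, limma adjusted p = 0.0158) was -0.52 without it. In recovery livers against TAA livers, Serpinc1 rose by 1.09. Zbtb37 overlaps 34.4% of its exon bases on the other strand.

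The fibrinolytic genes were led by Plg, the gene of plasminogen. It had 590, 591 and 662 scaled FPKM in controls, 266, 226 and 230 in TAA livers and 623, 669 and 569 in recovery livers. The log2 fold change of Plg was -1.35 in TAA livers (SE 0.11, limma adjusted p = 5.69e-05) and 1.36 in recovery livers against them. Serpinf2, which encodes the plasmin inhibitor alpha2-antiplasmin, and Cpb2, which encodes an inhibitor of fibrinolysis activated by thrombin, were lower by less than the fold criterion (-0.67 and -0.54).

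Shares of a library's summed FPKM do not use the factor of the library, and by them too the roles separated. Dividing by the sum is itself a scaling, the same as rescaling FPKM to a common sum. The share of the summed FPKM held by the terminal components was 0.247% to 0.283% in controls, 0.130% to 0.143% in TAA livers and 0.227% to 0.262% in recovery livers. The zymogens went from 0.185% to 0.194% in controls to 0.115% to 0.136% in TAA livers. In the other direction, fibrinogen with F13b took 0.607% to 0.707% of the control libraries and 0.945% to 1.04% of the TAA libraries, and the lectin arm 0.0523% to 0.0545% and 0.0703% to 0.0753%. The larger share of the lectin arm lay in Mbl2. With FPKM as deposited its log2 fold change was 0.94, against -0.97 for Mbl1, -0.70 for Masp2 and 0.01 for Masp1. For C3 the groups overlapped (0.454% to 0.535% and 0.457% to 0.490%). All 24 complement genes together held 1.14% to 1.26% in controls and 1.01% to 1.10% in TAA livers, and all 21 coagulation genes 1.55% to 1.61% and 1.71% to 1.92%. The fold changes above are relative to the typical gene. As a part of all measured RNA, the terminal components, zymogens and F5 were smaller in TAA livers. So were C2 with C4b (0.0881% to 0.102% in controls and 0.0605% to 0.0741% in TAA livers), the alternative arm and the fibrinolytic genes. The summed coagulation genes were larger, with fibrinogen and F13b as their largest part, and this does not hold for each role.

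**Figure D3:**
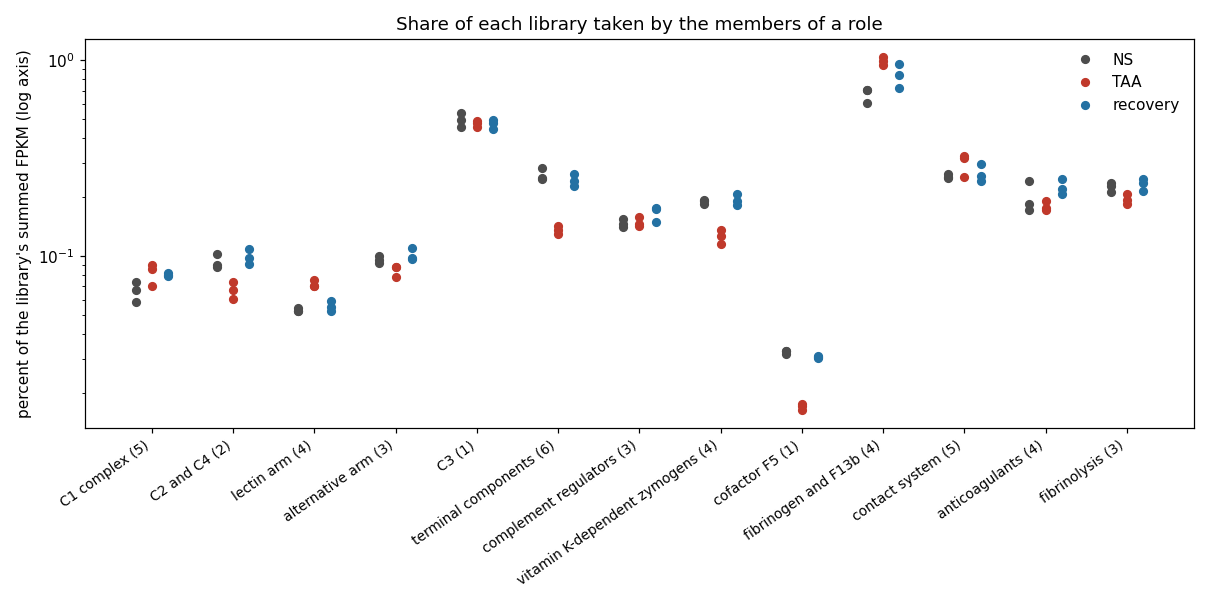
Share of the library's summed FPKM, in percent on a log axis, held by the genes of each role (number of genes in brackets), with 1 point per mouse in the control (NS), TAA and recovery groups. The terminal components, the zymogens, F5, C2 and C4, the alternative arm and fibrinolysis lie lower in TAA livers than in both others. Fibrinogen with F13b and the lectin arm lie above controls in TAA livers.

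The scaling also decided how many genes were called. In TAA livers against controls, 13 of the 45 genes were called with FPKM as deposited, 10 with FPKM rescaled to a common sum and 26 in the analysis above. The medians were then -0.65 and -0.46 for complement and -0.31 and -0.12 for coagulation genes, where those of all tested genes were 0.63 and 0.83. C1qa, C1qb, C6, C8b, C8g, Cfd, Hc and Klkb1 were called in the same direction under all 4 other scalings. Of the 26 called genes, Cfb alone changed sign, to 0.13 with quantile normalization. Under that normalization Fga, Fgb and Kng1 were called higher in TAA livers, with log2 fold changes of 1.31, 1.24 and 1.13. In recovery livers against TAA livers, C6, C8b, C8g, Cfd and Serping1 were called under all scalings, and Cfb and Serpinc1 changed sign with quantile normalization (-0.04 and -0.10).

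**Figure D4:**
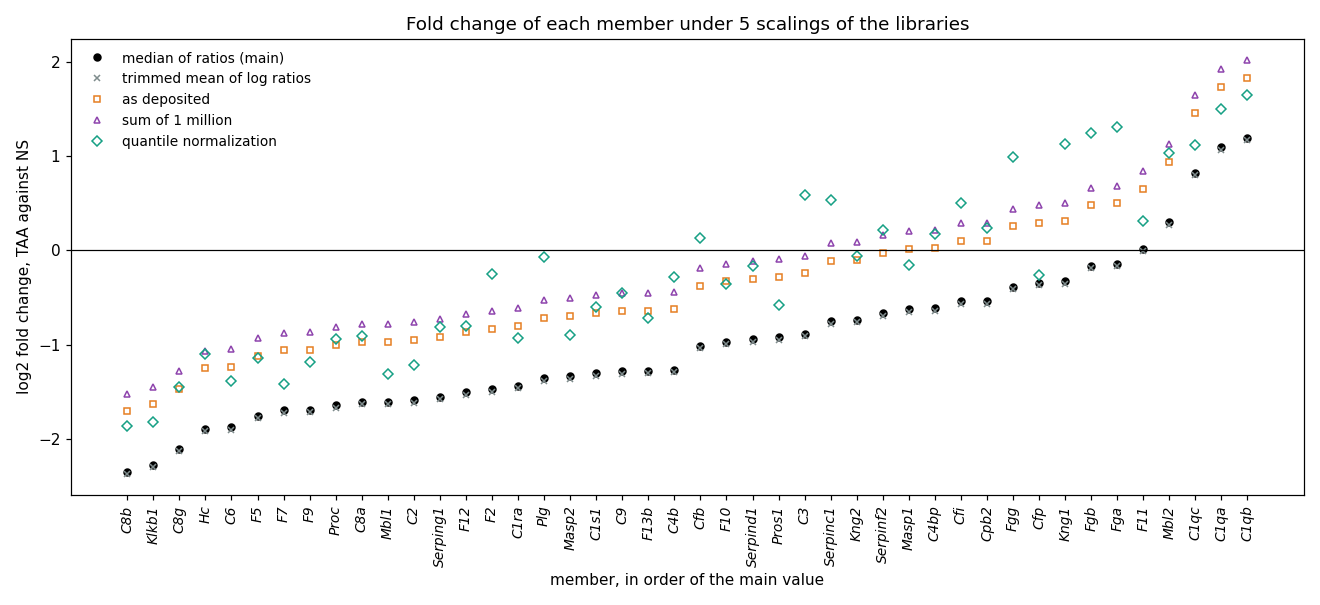
Log2 fold change in TAA livers against controls of 44 of the genes (Cfd is left out) under 5 scalings of the libraries, in the order of the main values. As deposited and with a common sum, all values lie higher by about the same amount, so that the order is kept; with quantile normalization, abundant genes such as Fga, Fgb, Kng1 and C3 lie highest above the main values.

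Ratios of neighbouring genes were computed for the 10 pairs of these genes that lie within 50000 bases of each other. In 7 of them the controls and TAA livers did not overlap, where the same held for 60.6% of the 9890 pairs of consecutive tested genes at such distances, so that the count is no result about these factors. Besides Klkb1 and F11, C8b and C8a, and F7 and F10, these were Cfb and C2 (7.62 to 8.46 in controls and 11.4 to 12.3 in TAA livers), Fgg and Fga, C1qb and C1qc, and Kng2 and Kng1. Fgg to Fga went from 0.953 to 1.03 in controls to 0.820 to 0.877 in TAA livers and 0.814 to 0.862 in recovery livers, all under controls. Between recovery livers and controls, 4 of the 10 pairs did not overlap, where 26.5% of the 9890 pairs did not, so such a separation was common. C1ra to C1s1 was 0.476 to 0.533 in controls, 0.442 to 0.484 in TAA livers and 0.609 to 0.641 in recovery livers. With 3 mice per group, the exact permutation test of a ratio cannot give a p below 0.1.

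**Figure D5:**
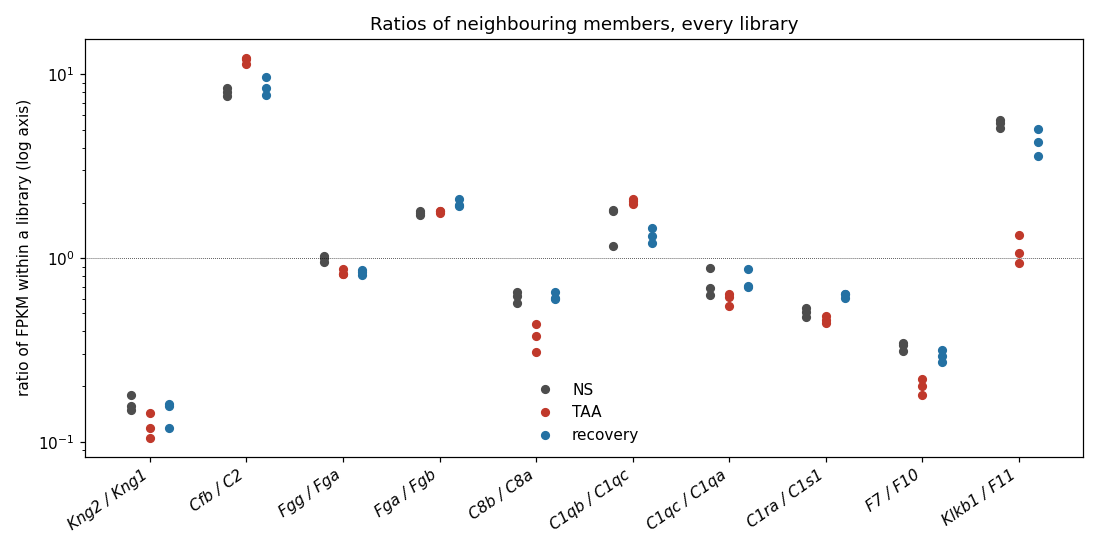
Ratio of the FPKM of 2 neighbouring genes within each library, on a log axis, for 10 pairs; each point is 1 mouse of the control (NS), TAA or recovery group, and the dotted line marks equal FPKM. The ratio of Klkb1 to F11 falls from above 5 to near 1 in TAA livers, whereas Fga to Fgb lies between 1.71 and 2.10 in every library.

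Recovery livers were close to controls in nearly all of these genes. For the 26 genes called in TAA livers, the recovery mean as a percentage of the control mean was 67.1% for Klkb1, 82.3% for Hc and 84.1% for C9 at the low end, apart from Cfd, and 136% for Serping1, 170% for C1qb and 199% for C1qa at the high end. Cfd was at 20.0% of a control mean that rests on NS 1, and at 88.0% of the mean of the other 2 controls. None of the 45 genes passed the adjusted threshold in limma, and their smallest adjusted p was 0.0556 (Cfp, log2 fold change 0.77, higher in all 3 recovery mice). At an unadjusted p under 0.05, 12 of the 45 genes (26.7%) differed, 7 higher and 5 lower, where 23% of all tested genes did. The higher ones were C1qa, C1qb, C1qc, Cfp, Cpb2, Fga and Serping1, and the lower ones F5, F9, Hc, Klkb1 and Pros1. C1qc had the largest positive log2 difference (1.14) and was called higher when all 9 libraries were fitted together or genes with a mean FPKM under 1 were left out.

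Other genes of both pathways were listed by function and not by their change. Of 28 tested complement genes outside the set, 6 rose and 11 fell in TAA livers, and of 33 tested coagulation genes 11 rose and 4 fell, beside 17% higher and 8.02% lower over all tested genes. These counts were not tested against those of the 45 factors. Relatives of C1r and C1s fell like them, with C1rb at -1.38, C1s2 at -1.44 and C1rl at -1.26; reads of C1ra and C1rb, and of C1s1 and C1s2, may be shared between these near copies. Susd4, a membrane-bound complement regulator, had 12.3, 14.1 and 15.5 in controls, 0.194, 0.140 and 0.228 in TAA livers and 2.54, 1.51 and 2.31 in recovery livers. It fell by 5.62 and was still called lower in recovery livers against controls (-2.69, limma adjusted p = 0.00817), a call that was lost with the replicate block (0.0518) and when tested against a fold change of 2 itself (0.151). Besides Susd4 and Plat, Serpine2, the gene of a protease inhibitor (nexin), was the remaining gene of both lists called between these groups. It had 7.28, 5.55 and 7.22 in controls, 10.7, 5.71 and 9.76 in TAA livers and 1.81, 1.26 and 1.68 in recovery livers (log2 difference from controls -2.02, limma adjusted p = 0.00975, and 0.481 when tested against a fold change of 2 itself). The rising complement genes were all receptors, 6 of 10 tested (C3ar1, C5ar1, Cr2, Itgam, Itgax and Cd93). Some of them, though not Cr2, mark myeloid or endothelial cells.

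On the coagulation side, 4 of 8 tested genes of plasminogen activation and both protease-activated receptors tested rose. Of 11 inhibitors and related genes, Thbd, Procr and Serpina5 rose and Adamts13, Hrg and Mug1 fell, with a median log2 fold change of -0.27. Plat, the gene of tissue plasminogen activator, had 0.182, 0.265 and 0.154 scaled FPKM in controls, 7.28, 11.5 and 9.68 in TAA livers and 0.553, 0.833 and 0.560 in recovery livers. It rose by 4.99 and was called higher in recovery livers than in controls (1.31, limma adjusted p = 0.0439). Among other settings, that call was lost when any 1 mouse was left out (limma adjusted p of 0.0700 to 0.130), with the replicate block (0.0636), without a filter on low values (0.0748) and with a pseudocount of 1, where the log2 difference was 0.45. Anxa2, a plasminogen receptor subunit, rose by 4.16, F2rl1, one of those receptors, by 2.90, Thbd, the gene of thrombomodulin, by 1.37 and Plau, the gene of urokinase, by 1.01. Tfpi, the tissue factor pathway inhibitor, was higher by less than the fold criterion (0.74). F3 (tissue factor), F8, Vwf and F13a1 were not called in TAA livers, with log2 fold changes of 0.36, -0.65, -0.03 and 0.78. Mug1, which encodes a protease inhibitor of plasma, fell by 3.04, from 1473 to 1705 in controls to 174 to 208 in TAA livers, and was at 1529 to 1625 in recovery livers.

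The RefSeq table used here held upstream sequences for 35 of the 45 genes. In the 250 bases before the start, on either strand, an HNF1 half-site was found in 9 of the 35 (25.7%), against 7.49% of all 27025 genes with such a sequence. A C/EBP-type match was found in 9 (25.7%, against 10.8%), a STAT-type match in 6 (17.1%, against 8.13%) and an IL-6 type II element in 5 (14.3%, against 10.4%). The half-site stood in 6 of 17 complement genes (C1ra, C4bp, C8a, C8b, Cfp and Hc) and in 3 of 18 coagulation genes (F13b, Fga and Fgb). Such a match describes letters in the window, and its use in these livers was not measured. The 9 genes with a half-site are genes that fell in TAA livers (C1ra, C8a, C8b, F13b and Hc) and genes that were not called there (Fga, Fgb, C4bp and Cfp).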

How the data were processed

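Per the labels and the study's methods, the authors mapped paired-end reads of liver RNA to mm10 with HISAT2 2.2.1, counted them per gene with featureCounts 1.5.0-p3 and deposited FPKM, with 1 column per mouse (3 NS, 3 TAA, 3 Recovery). Read counts were not used here, so the error of each value is the spread between mice.

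For each library a factor was the median of ratios over the 14005 genes above 0 in all 9 libraries. The 14094 genes whose mean FPKM reached 0.1 entered limma 3.58.1 (R 4.3.3, trended eBayes) on log2(scaled FPKM + 0.1). Each comparison used its own 6 libraries, with FDR < 0.05 over all tested genes and a fold change of at least 2 as criteria. The added 0.1 draws fold changes of low genes towards 0. On simulated data (13364 to 13369 genes), a gene counted as recovered at a limma adjusted p under 0.05 with the right sign, without the fold criterion. Of the 64 genes changed 4-fold between TAA and NS 90.6% were recovered, and of the 61 changed 2-fold 62.3%. Of genes changed 2-fold, 51.6% were recovered between recovery and TAA and 52.4% between recovery and NS. Of genes changed 1.5-fold between recovery and NS, 23.8% were recovered. These are not rates of calls, and far fewer genes were changed there than were called in the livers.

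The factors, lists, motifs and tests were chosen with earlier results of these data known. Every factor was named. Values per library were given for the gene of each role with the largest change and for a fixed set of main factors; Mbl2, Cfp and F11 were added after values were seen. Of other pathway genes, relatives of the factors, a set of chosen genes (some are not reported here) and the 5 with the largest change were named; C7, Vkorc1, Ggcx, Serpine2, the inhibitors called and the receptors were added later. Replicate numbers did not pair the mice. Loci were those of the table (identical to GENCODE M21 for 41 of the 45); sequences came from RefSeq (GRCm38.p6). Alternatives to the pseudocount, filter, scaling, samples, trend, block, test and mice were tried. Ratios, sequences and plots were made with Python 3.11.15, pandas 2.3.3, scipy 1.17.1 and matplotlib 3.10.9.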

Additional observations from a re-analysis of the deposited data

How the results depend on the processing

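Depth is not known from FPKM, and 3 mice per group limit the precision. The scaling of the libraries moved most counts. In TAA livers against controls, FPKM as deposited left 13 of the 45 factors called, 5 complement and 5 coagulation genes lower. A common sum left 10 factors called (4 complement genes higher, 5 lower, and 1 coagulation gene lower) among 6030 called genes, where 3520 were called in the main analysis. Quantile normalization called 4 complement genes higher and 7 lower, and 3 coagulation genes higher and 4 lower; it turned Cfb to 0.13, Fga to 1.31, Fgb to 1.24 and Kng1 to 1.13. Higher genes made up 67.9% of all called genes, but 91.2% as deposited, 94.3% with a common sum and 55.7% with quantile normalization. In recovery livers against TAA livers, FPKM as deposited gave 13 called factors (8 complement and 5 coagulation genes higher), a common sum 8 (5 complement genes higher and 2 lower, coagulation 0 higher and 1 lower, 5379 genes in all) and quantile normalization 17 (10 complement genes higher and 1 lower, 6 coagulation genes higher), with Cfb at -0.040 and Serpinc1 at -0.10. There the share of higher genes was 33.2% in the main analysis, 9.89% as deposited, 5.86% with a common sum and 44.9% with quantile normalization. The cause of these moves beyond the shift of all genes was not tested.

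A pseudocount of 1 called 21 other pathway genes and 1780 genes in TAA livers against controls, 19 and 1460 in recovery against TAA livers, and 80 genes in recovery livers against controls. Without a filter on low values, 1 complement gene was higher in TAA livers and 48 genes were called between recovery livers and controls; with a filter at a mean FPKM of 1 the calls were 2204 and 1895 genes in the first pair of comparisons, and 1 complement gene, the 1 factor called (C1qc), was higher in recovery livers than in controls. Testing against a fold change of 2 itself (limma's treat) called 0 complement genes higher, 13 other pathway genes and 1441 genes in TAA livers; 10 complement genes, 6 coagulation genes, 16 factors, 12 other pathway genes and 1084 genes in recovery against TAA livers; and 0 other pathway genes and 0 genes in recovery livers against controls. With all 9 libraries in 1 fit, 1 complement gene (1 factor), 5 other pathway genes and 235 genes were called in that last comparison, and without a trend 85.

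Same-numbered mice did not deviate together (r of -0.0705 to 0.125). With the replicate block, 26, 27 and 0 factors were called in the 3 comparisons, and in recovery livers against controls 1 other pathway gene and 17 genes, where 3 and 140 were called without it.

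Leaving out 1 mouse at a time gave 0 to 2 complement genes higher in TAA livers (0 without NS 1, TAA 1 or TAA 3), 14 to 15 lower, and 9 to 12 coagulation genes lower. In recovery against TAA livers, 14 to 16 complement and 10 to 11 coagulation genes were higher. In recovery livers against controls, 32 to 106 genes, 2 to 2 other pathway genes and 0 factors were called. None of the called factors changed sign when a mouse was left out, whereas values close to 0 that were not called did (C1qa in recovery against TAA livers, F11 in TAA livers and several genes in recovery livers against controls).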
